A study of Mus musculus with 30 samples.

Results

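The kept regions are the Ikaros-bound regions of wild-type pre-B cells that were also found in mutant pre-B cells and in thymocytes of both genotypes. A peak of the WT pre-B Ikaros list was kept when it shared at least 1 bp with a peak in each of the other Ikaros lists, those of homo pre-B cells, WT thymocytes and homo thymocytes. Of 3683 WT pre-B Ikaros peaks, 979 (26.6%) were kept. The 4 lists together hold 24085 peaks. The members were chosen by the peak calls themselves, which rest on the signal in each list, and the fold, the q-value and the width of the regions are given as a description with no test.

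The mice were of the C57BL/6 strain and WT (Ikzf3+/+), het (Ikzf3+/m, 1 mutant copy) or homo (Ikzf3m/m, both copies mutant) for G158R, an amino acid substitution in Aiolos, the product of Ikzf3. Chromatin immunoprecipitation with sequencing used an Ikaros and an Aiolos antibody in WT and homo cells, with 1 library per antibody, genotype and cell type. The pre-B cells for it were cultured from IgM- B220+ marrow over Tst-4 stroma in IL-7, SCF and Flt3L. The thymocytes came from thymus. RNA was sequenced from pre-pro B cells (B220+ AA4.1+ CD43+ CD24- IgM-) and pre-B cells (B220+ AA4.1+ CD24+ CD43- IgM-) sorted from bone marrow, with 3 libraries per genotype and stage. No RNA of the cultured cells or of thymocytes was measured. A marker check of the cells in the peak lists was therefore not made, and the RNA below belongs to other preparations than the peaks.

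Ikaros, encoded by Ikzf1, and Aiolos are zinc finger proteins of one family that form homodimers and heterodimers with each other through their C-terminal fingers. Both bind DNA sites built around a GGGAA core, recruit the NuRD corepressor complex, and act as regulators of lymphocyte development. In B cell precursors Ikaros restrains proliferation and helps the large, IL-7-dependent pre-B cell become a small pre-B cell. In thymocytes it takes part in the double-positive stage and acts as a tumour suppressor.

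A handful of kept regions lie at gene starts whose RNA or binding is described further below, and their promoter windows are shown so that the GGGAA core can be seen in place. Each window runs from 250 bases before to 50 bases after a gene start, is given 5′ to 3′ on the strand of the gene, and comes from RefSeq on GRCm38.p6, the assembly named mm10. Capitals mark GGGAA or its reverse complement TTCCC. The windows are Lcp2 (chr11:34046678-34046977, plus strand), Hjurp (chr1:88277530-88277829, minus strand), Spred2 (chr11:19924192-19924491, plus strand), Wipf2 (chr11:98863348-98863647, plus strand) and Il7r (chr15:9529827-9530126, minus strand). A kept region covered all 300 bases of the Hjurp, Spred2 and Wipf2 windows, 291 of the Lcp2 window and 263 of the Il7r window.
Lcp2: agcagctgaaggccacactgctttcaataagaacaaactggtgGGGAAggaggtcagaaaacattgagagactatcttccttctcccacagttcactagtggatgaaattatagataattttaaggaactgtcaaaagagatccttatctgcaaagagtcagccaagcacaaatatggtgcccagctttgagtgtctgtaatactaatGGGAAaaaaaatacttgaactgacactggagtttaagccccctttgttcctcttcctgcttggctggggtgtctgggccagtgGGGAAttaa
Hjurp: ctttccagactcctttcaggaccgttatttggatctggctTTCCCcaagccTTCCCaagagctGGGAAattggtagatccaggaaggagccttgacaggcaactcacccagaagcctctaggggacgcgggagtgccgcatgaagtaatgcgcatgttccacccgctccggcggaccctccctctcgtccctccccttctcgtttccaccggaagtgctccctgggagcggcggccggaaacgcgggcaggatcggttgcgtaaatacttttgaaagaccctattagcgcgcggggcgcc
Spred2: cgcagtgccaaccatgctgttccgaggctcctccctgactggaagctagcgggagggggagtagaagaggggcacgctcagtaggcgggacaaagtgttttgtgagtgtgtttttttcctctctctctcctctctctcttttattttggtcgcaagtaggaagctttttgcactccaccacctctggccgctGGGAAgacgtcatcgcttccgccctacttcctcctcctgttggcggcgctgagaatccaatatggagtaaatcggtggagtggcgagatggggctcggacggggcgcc
Wipf2: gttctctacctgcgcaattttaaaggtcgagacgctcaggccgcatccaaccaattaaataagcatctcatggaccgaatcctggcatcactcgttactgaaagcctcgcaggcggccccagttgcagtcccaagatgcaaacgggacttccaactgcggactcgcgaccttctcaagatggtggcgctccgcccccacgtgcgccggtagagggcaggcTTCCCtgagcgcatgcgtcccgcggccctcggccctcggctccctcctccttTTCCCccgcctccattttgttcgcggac
Il7r: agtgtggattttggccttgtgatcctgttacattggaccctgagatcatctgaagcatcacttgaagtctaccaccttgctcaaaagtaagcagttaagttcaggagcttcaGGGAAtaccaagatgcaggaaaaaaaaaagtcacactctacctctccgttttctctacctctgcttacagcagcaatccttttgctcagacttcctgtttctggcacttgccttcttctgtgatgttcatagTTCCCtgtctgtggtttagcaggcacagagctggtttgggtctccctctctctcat

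Lcp2 and Hjurp each held the core 3 times, Wipf2 and Il7r held it 2 times and Spred2 held it once. The window of Runx3 lies whole inside a kept region and held no GGGAA on either strand. In all, 67 windows of 61 genes were overlapped by a kept region, and some of these windows overlap each other where a gene has several starts or shares a start region with its neighbour. GGGAA was present on either strand in 48 of the 67 (71.6%), in 29 of 37 windows overlapped by regions found in both pre-B lists and no thymocyte list (78.4%) and in 62.7% of all 32851 windows of the table. The longer TGGGAA, which contains it, was present in 19 (28.4%), 15 (40.5%) and 25.6%. Some windows were only touched, as at Barhl1 with 3 bases in a kept region, so a motif in a window need not lie in the region. Of the 18 windows that lay whole inside a kept region, 11 held GGGAA and 5 held TGGGAA. The ETS-type sequence CCGGAAGT was found in 6 (8.96%) of the windows at kept regions, in 1 of the 37 and in 3.89% of all, and the E box CAGCTG in 12 (17.9%), 5 (13.5%) and 16.3%. TGTGGT, the RUNX core, was found in 11 (16.4%), 6 (16.2%) and 16.8%. The windows also differed in base composition, with a median GC content of 58.7% at kept regions, 54.0% at the pre-B regions and 52.7% in the whole table, and its part in these shares was not tested. Sequence of the kept regions away from gene starts was not analysed here.

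Kept regions stood above the remaining peaks of each list in the fold, the caller's ratio of signal over background in the deposited lists. In the WT pre-B list the kept regions had a median fold of 7.06, with 10th and 90th percentiles of 4.27 and 14.3 and a range of 1.31 to 30.2, and the other peaks had a median of 4.89. In the homo pre-B list the medians were 8.20 for the 977 peaks on kept regions and 4.61 for the others. In the WT thymocyte list they were 6.85 for 979 peaks and 4.21, and in the homo thymocyte list 6.33 for 976 peaks and 4.14. A few neighbouring kept regions share 1 wider peak of another list, hence the smaller numbers in the homo lists. The kept regions made up 11.4% of the homo pre-B list, 27.4% of the WT thymocyte list and 11.9% of the homo thymocyte list. The lists differ in length, and depth and input are not given for them, so folds are set side by side and not turned into a change between lists.

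**Figure D1:**
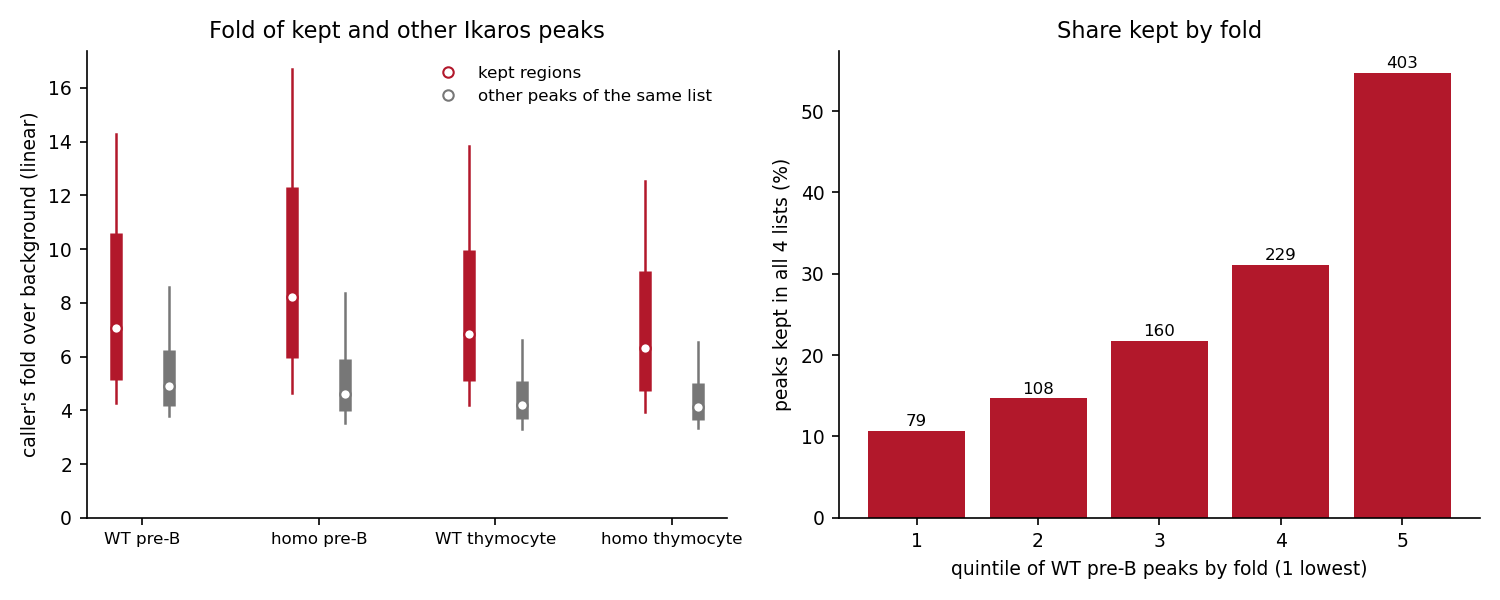
Left, the caller's fold in each Ikaros list (linear axis) for peaks on kept regions (red) and for the other peaks of that list (grey), with the median as an open point, the quartiles as a thick bar and the 10th to 90th percentile as a thin line; right, the share of WT pre-B peaks kept in all 4 lists by quintile of fold, with the number kept above each bar. The kept medians lie at 6.33 to 8.20 and the other medians at 4.14 to 4.89.

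The share of WT pre-B peaks that were kept went from 10.7% in the lowest quintile by fold to 14.7%, 21.7%, 31.1% and 54.7% in the next quintiles. Low peaks were still kept in number, with 79 in the lowest quintile, where the fold was 4.16 or less. Width followed the fold. Kept regions had a median width of 431 bp in the WT pre-B list against 295 bp for its other peaks, and 582 against 324 bp, 495 against 299 bp and 596 against 382 bp in the homo pre-B, WT thymocyte and homo thymocyte lists. The largest group of WT pre-B peaks that were not kept was found in the homo pre-B list alone, with 2225 peaks, a median fold of 4.97 and a median width of 299 bp. Another 169 were in the homo pre-B and WT thymocyte lists, 115 in the homo pre-B and homo thymocyte lists, 33 in both thymocyte lists but not in homo pre-B, 14 in WT thymocytes alone, 2 in homo thymocytes alone and 146 in no other list.

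Peaks on one kept region mostly lay close to each other in the 4 lists. The centre of the homo pre-B peak was a median of 36 bp from the centre of the WT pre-B peak, and those of the WT and homo thymocyte peaks 39 and 54 bp. The homo pre-B peak covered the whole WT pre-B region at 665 of the 979, the WT thymocyte peak at 437 and the homo thymocyte peak at 473. The threshold of 1 bp had few regions near it. The smallest overlap was 62 bp, at chr2:27540196-27540404 (fold 3.65), and 3 regions had an overlap under 100 bp. Just outside, 317 peaks were in 3 of the 4 lists, and 1 of them had its nearest peak of the remaining list within 200 bp, at 47 bp (chr13:30135737-30136042, fold 5.64).

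Across the 979 regions, the order of the folds was closer between genotypes of one cell type than between cell types. Spearman's rho was 0.86 (Pearson's r 0.90) between WT and homo pre-B, 0.81 (r 0.83) between WT and homo thymocytes, 0.49 (r 0.56) between WT pre-B and WT thymocytes and 0.41 to 0.44 for the 3 remaining pairs. These are descriptions over regions that share the libraries they were read from.

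**Figure D2:**
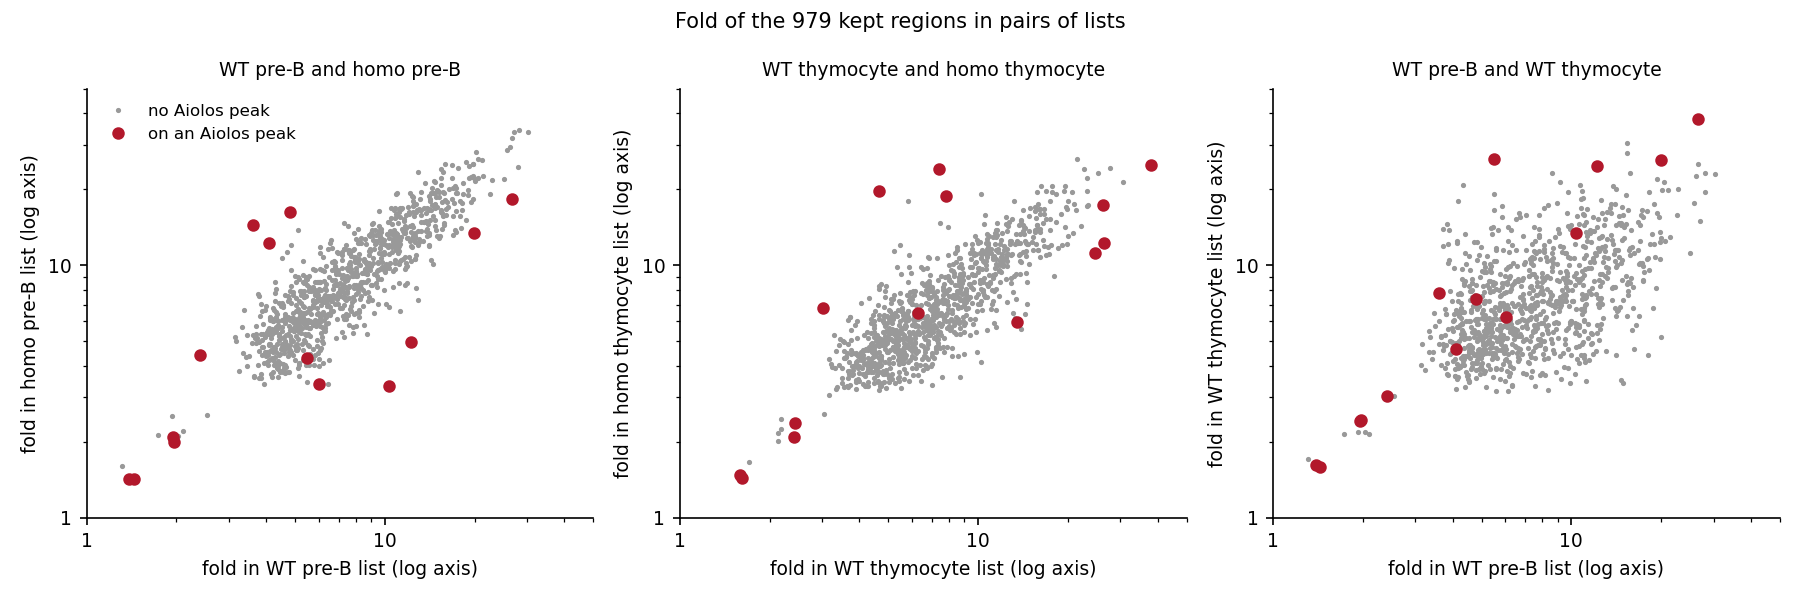
Each point is 1 of the 979 kept regions, with its fold in 2 Ikaros lists on log axes; red points overlap a peak of any Aiolos list. The genotype pairs of pre-B cells (left) and of thymocytes (middle) form narrower clouds than the pair of cell types (right), and several red points lie off the cloud in the left and middle panels.

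The region with the highest fold in WT pre-B cells was chr5:141017796-141018779, 984 bp wide, in no annotated gene span and 4310 bp from the nearest start in the table, that of the predicted gene Gm38729. Its fold was 30.2 in WT pre-B, 33.7 in homo pre-B, 23.1 in WT thymocytes and 19.8 in homo thymocytes. A region inside Zfp607b, a zinc finger gene, followed with 28.1, 34.4, 23.2 and 22.1 (chr7:27688811-27689632). One inside Arhgap25, which encodes a GTPase-activating protein for Rac in blood cells, had 28.1, 24.6, 19.5 and 20.6 (chr6:87503586-87504409). All 3 stood above the 99th percentile of each list. The region inside Snx29 (chr16:11686119-11688058, 1940 bp) had the highest fold of the WT thymocyte list, 37.9, beside 26.6, 18.4 and 24.9 in WT pre-B, homo pre-B and homo thymocytes.

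Of the 15 regions with the highest fold in WT pre-B cells, 1 covered a gene start and 1 other lay within 1 kb of one, with no distance for 1 of the 15. The former is chr11:98863318-98864301 at Wipf2, which encodes a WASP-interacting protein of the actin cytoskeleton, with folds of 22.8, 21.8, 20.0 and 13.1 in WT pre-B, homo pre-B, WT thymocytes and homo thymocytes. The latter lies 168 bp from a start of Gapvd1, a regulator of endocytosis, with 25.8, 28.7, 17.7 and 19.5 (chr2:34754244-34755064). A region inside C1qtnf1 was less even across cell types, with 25.02 and 22.04 in the pre-B lists and 11.2 and 7.25 in the thymocyte lists (chr11:118427957-118428838).

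The widest kept region, of 2472 bp on the X chromosome, covered the start of Cdr1, the locus that also gives rise to an abundant circular RNA in brain (chrX:61183672-61186143), with folds of 11.2, 8.48, 7.03 and 4.49 in the same order. The next, of 2207 bp, covered a start of Runx3 (chr4:135152178-135154384), a RUNX factor of cytotoxic T cells and other lymphocytes, with 13.6, 14.9, 17.5 and 13.9. Wide regions also lay 183 bp from a start of Crlf2, which encodes the TSLP receptor (chr5:109556962-109558810, 1849 bp), over the start of Fadd, the adaptor of death receptors (chr7:144582437-144584169, 1733 bp), and inside Bcl6, the germinal centre repressor (chr16:23985125-23986747, 1623 bp). At Crlf2 the fold was 5.45 and 7.57 in WT and homo pre-B and 14.2 and 16.5 in WT and homo thymocytes, and at Bcl6 it was 10.6 and 11.8 against 5.83 and 6.06.

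At the low end, 7 kept regions had a fold under 2 in WT pre-B cells. The lowest, 1.31, was at chr17:39847183-39848064 inside Rn18s-rs5, a ribosomal RNA sequence, where the homo pre-B, WT thymocyte and homo thymocyte peaks were 5879, 5872 and 5851 bp wide with folds of 1.61, 1.71 and 1.66. Another lay at chr9:3031856-3032608 with 1.44, 1.43, 1.59 and 1.48, and 2 lay on an unplaced scaffold. Of the 7, 4 also overlapped an Aiolos peak, all with Aiolos folds under 3.

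Kept regions lay nearer to gene starts than the other WT pre-B peaks. Distances could be given for 954 kept regions and 2175 of the pre-B regions found in no thymocyte list, since the start table holds none for chromosome 18 or the scaffolds. A start was covered by 37 kept regions (3.88%) and by 12 of the pre-B regions (0.552%). Within 1 kb of a start lay 173 (18.1%) against 153 (7.03%), and within 5 kb 354 (37.1%) against 476 (21.9%). The median distance was 10740 bp against 20930 bp, and 15.7% against 27.9% lay more than 50 kb away. A gene span held 66.8% of the kept regions and 53.3% of the pre-B regions. Over all 2644 WT pre-B peaks not kept that had a distance, 7.3% lay within 1 kb of a start and 22.3% within 5 kb. Their median distance was 20320 bp, and a gene span held 54.0% of them. Which exon, intron or untranslated part a region fell in was not analysed here.

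Fold and position go together, so the share near starts was also taken within quintiles of fold. In the lowest quintile, 14.7% of kept and 5.45% of not kept peaks lay within 1 kb of a start, and in the highest 21.2% and 6.52%. The quintiles between gave 15.3% to 16.8% and 6.84% to 9.82%. The kept share was the larger in each of the 5. Kept regions that covered a start had a median fold of 10.9 and a median width of 637 bp in the WT pre-B list, beside 6.94 and 427 bp for those that did not, and their median folds in homo pre-B, WT thymocytes and homo thymocytes were 12.3, 10.6 and 10.1.

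**Figure D3:**
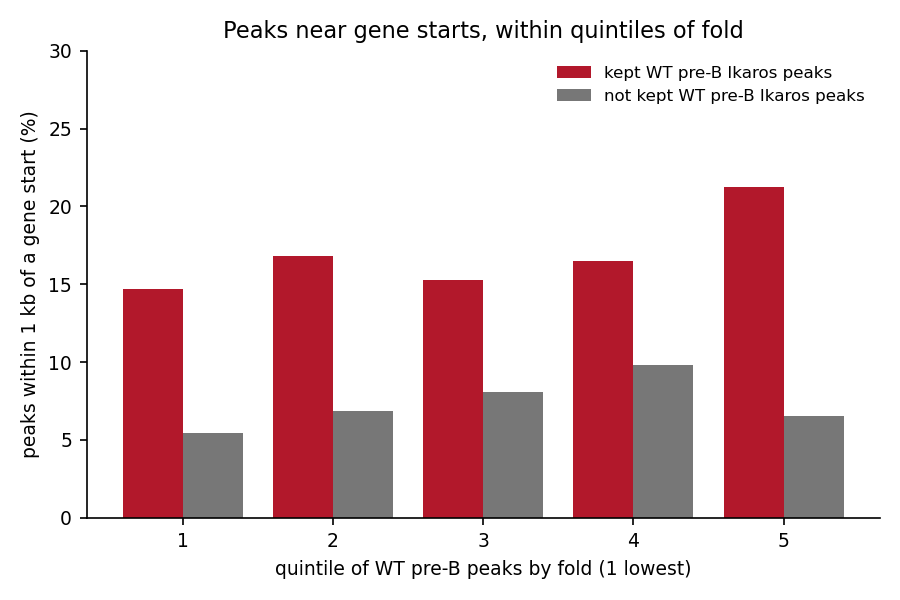
Share of WT pre-B Ikaros peaks within 1 kb of a gene start, by quintile of the caller's fold, for kept peaks (red) and peaks not kept (grey). Kept peaks range from 14.7% to 21.2% and the others from 5.45% to 9.82%.

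Kept regions were spread over the genome, with a median gap of 955213 bp between neighbours, and 25 of 955 neighbouring pairs lay within 5 kb of each other. Their share of the WT pre-B peaks of a chromosome ran from 22.0% on chromosome 15 to 34.7% on chromosome 16 among the autosomes. Still, 9 gene spans held 3 or more of them. The Tcra locus, which holds the T cell receptor alpha segments, held 4, as did Zfhx3, a homeobox gene. The Igh locus, the immunoglobulin heavy chain, held 3, with folds in WT pre-B, homo pre-B, WT thymocytes and homo thymocytes of 15.3, 13.1, 8.46 and 10.4 at the highest (chr12:115452344-115453046). Fli1, an ETS factor, held 3, and its strongest had 17.2, 13.8, 10.2 and 10.7 (chr9:32541173-32541938). Its neighbour at chr9:32539630-32540220 had 5.11 in WT pre-B and the same folds in the other 3 lists, where both appear to lie on 1 shared peak. Clic5, a chloride channel family gene, held 3, with 17.4, 19.4, 8.66 and 10.7 at the strongest (chr17:44261774-44262477). Maml3, a Notch coactivator, Wwox, the predicted gene Gm31718 and Tcf4 held 3 each. Since these spans are long, the numbers are not per length.

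Genes of 15 lists for lymphoid and other functions were looked up at the kept regions. Of the B lineage transcription factors, 2 of the 22 with a start in the table, Tcf12 and Pou2af1, had a kept region within 1 kb. Tcf12 encodes the E protein HEB, and 2 kept regions covered starts of it, with folds in WT pre-B, homo pre-B, WT thymocytes and homo thymocytes of 17.3, 13.6, 16.6 and 16.8 at chr9:72110568-72111346 and of 12.01, 10.8, 11.2 and 8.93 at chr9:71896086-71896642. Pou2af1, the coactivator OCA-B, had 4.12, 6.26, 3.56 and 4.97 at 423 bp from its start. Kept regions also lay inside Ets1, Irf4, Lef1 and Bcl6.

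In the T lineage and Notch list, 2 of 21 genes, Runx3 and Cd5, had a kept region within 1 kb. Cd3d, a chain of the T cell receptor complex, and Zap70, its kinase, held one within 5 kb of the start. At Zap70 the folds were 11.1 and 10.2 in the pre-B lists and 9.66 and 8.61 in the thymocyte lists. Il7r, the receptor chain for IL-7, had a kept region over its start with 7.20, 10.5, 9.09 and 7.15. Plcg2, a phospholipase downstream of the pre-B receptor, had one 546 bp from its start with 11.2 and 11.4 in the pre-B lists and 3.50 and 3.59 in the thymocyte lists. Atm, the kinase of the response to DNA breaks, had one with 6.92, 8.40, 5.07 and 6.10. Rag1, the recombinase gene, had one at 3065 bp with 4.21, 4.55, 6.32 and 5.33.

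Zfp36l1, an RNA-binding protein that promotes decay of cell cycle mRNAs, had a kept region 151 bp from its start that was high in all lists, with 17.9, 17.9, 16.5 and 14.7 (chr12:80113164-80113847). In the other lists, a kept region lay within 1 kb of a start at Rps19 of the cytosolic ribosomal protein genes. None did in the lists of Ikaros family and corepressors, integrin and adhesion, G1 control, glucose supply, splicing, NF-kB, myeloid or NK genes. Only genes with a start in the table could be checked, such as 15 of the 22 Ikaros family and corepressor genes. A kept region 718 bp wide inside Itgam, a myeloid integrin, had 14.2 and 15.2 in the pre-B lists and 4.42 and 4.95 in the thymocyte lists. Of the Ikaros family itself, Ikzf4 held 1 kept region inside its span (10.9, 11.5, 9.51 and 7.13), but it has no start in the table. The nearest to Ikzf1 lay 5788 bp outside the gene, with 7.25, 7.50, 10.7 and 10.5, and the nearest to Ikzf3 was the one at Wipf2, at a distance of 317287 bp.

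The Aiolos lists are shorter, with 431 peaks in WT pre-B, 24 in homo pre-B, 25 in WT thymocytes and 184 in homo thymocytes. Aiolos peaks overlapped 6, 4, 6 and 6 of the 979 kept regions (0.409% to 0.613%), and 12, 1, 1 and 0 of the 2704 WT pre-B Ikaros peaks that were not kept (0 to 0.444%). Together 14 kept regions met an Aiolos peak of any list, and none met one in all 4. Among the 10 of these with a fold of 2 or more were regions whose Ikaros fold was higher in both homo lists than in both WT lists. At Rps19 the Ikaros fold was 4.79 in WT and 16.3 in homo pre-B cells and 7.38 in WT and 24.2 in homo thymocytes, with an Aiolos peak of fold 5.46 in homo thymocytes only (chr7:24884169-24884756). At chr17:7911141-7911610, 14390 bp from a start of Tagap, a T cell GTPase-activating protein, it was 3.60 and 14.5 in pre-B cells and 7.80 and 18.9 in thymocytes, with Aiolos peaks in homo pre-B (4.30) and homo thymocytes (15.7). At chr14:64949890-64950099 it was 4.09 and 12.3, and 4.67 and 19.6, with an Aiolos peak in homo thymocytes (5.94). At the start of Hjurp, a centromere chaperone (chr1:88277519-88277868), the folds were lower, at 2.40 and 4.40, and 3.03 and 6.80, with an Aiolos peak in homo thymocytes (3.82). The same order was also seen at kept regions on no Aiolos peak, as at the start of Ogg1, with 4.27 and 7.75, and 5.35 and 9.88.

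Others of the 10 showed the opposite order. At chr8:46030898-46031555 the Ikaros fold was 10.4 in WT and 3.32 in homo pre-B cells and 13.5 in WT and 5.97 in homo thymocytes, with an Aiolos peak of 7.80 in WT thymocytes only. At chr16:38353081-38353679, 8511 bp from a start of Popdc2, it was 12.2 and 4.99, and 24.7 and 11.2, with Aiolos peaks in WT (7.26) and homo thymocytes (6.07). At Snx29 and at chr16:89904684-89905785 (20.0 and 13.5, and 26.2 and 17.4), Aiolos peaks stood in both WT lists, and at the latter in homo thymocytes too (6.41). With 1 library for each antibody, genotype and cell type, a difference at 1 region has no replicate check, and these regions were singled out after their values were seen.

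RNA could be set beside the regions for genes near them. A start within 1 kb of a kept region was found for 190 genes, and 155 of them were matched in the count table by symbol or synonym. Of the matched genes, 127 (81.9%) had enough counts to be tested in pre-B cells, beside 54.1% of the genes near pre-B regions found in no thymocyte list and 46.7% of the whole table. Libraries of pre-B cells held 1888871 to 6757040 gene counts, the lowest in homo replicate 3. The 8 pre-B markers used (such as Vpreb1, Igll1 and Pax5) were all present in WT and homo, with summed levels of 2700 to 2913 and 2832 to 5080 CPM (read counts scaled to library size). Y-linked and Xist counts showed that the WT pre-B libraries were all from females, and homo replicates 1 and 3 from males.

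In homo against WT pre-B cells, 30 of the 127 genes near kept regions changed (edgeR quasi-likelihood test, Benjamini-Hochberg adjusted p under 0.05 over all genes tested), 14 higher and 16 lower, which is 23.6%. Over all 11411 genes tested, 15.9% were called, 7.42% higher and 8.45% lower. The median log2 difference, homo minus WT, was 0.060 near kept regions and 0.018 over all genes. Of 60 tested genes near pre-B regions found in no thymocyte list, 9 (15%) were called. The difference between these shares was not tested. The WT and homo libraries did not overlap in any of the 30 called genes, nor in some genes that were not called. In a called gene, such a gap is therefore no support beyond the call. Its share over all genes was not counted. The count moved with single libraries and with sex: without WT replicate 1, 19 of the 127 (14.96%) were called, beside 9.11% of all genes, and with a sex term in the fit 25 (19.7%), beside 12.1%.

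Summed levels of marker sets for other cells also moved between these groups, and a sum does not show which cells its RNA came from. The 5 myeloid markers summed to 55.1 to 57.6 CPM in WT and 114 to 151 in homo libraries, with Elane at 0 in WT. The 5 NK markers summed to 0.718 to 1.28 and 1.43 to 8.20 CPM (Gzma, Gzmb and Ncr1 at 0 in WT), the 4 stromal markers to 256 to 280 and 312 to 446 (Col3a1 at 0 in homo), and the 4 plasmacytoid dendritic markers to 320 to 343 and 370 to 500. The sum of the 7 T cell markers was lower in homo, at 40.1 to 42.2 CPM in WT and 22.3 to 28.9 in homo. Not every member fell, since Cd3e and Cd3g were at 0 in WT and had counts in homo. Cd8a was at 0 in both. Their part in the results was not tested. In such bulk samples, fewer cells of a type and less RNA per cell cannot be told apart.

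Rragd was among the genes that were higher in homo pre-B cells. It encodes a Rag GTPase that signals amino acid supply to mTORC1, and a kept region lay 252 bp from its start (fold 7.82 in WT pre-B and 7.53 in homo pre-B). Its level was 27.0, 32.3 and 31.9 CPM in WT and 159, 141 and 137 CPM in homo, with the het libraries between them at 77.0, 70.6 and 79.9. The log2 difference was 2.27 ± 0.12 (SE, adjusted p = 6.54e-06, edgeR), and the groups did not overlap.

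Ccdc122 and Lacc1 are neighbours that share 1 kept region, chr14:77035893-77036138, with folds of 4.73, 7.56, 5.56 and 4.58. Lacc1, an enzyme of purine metabolism in macrophages, was at 5.27, 3.77 and 5.32 CPM in WT and 15.4, 17.5 and 15.8 CPM in homo, a log2 difference of 1.77 ± 0.28 (SE, adjusted p = 0.00222). Ccdc122 was at 0.959, 0.718 and 0.645 CPM in WT and 3.96, 6.20 and 14.6 CPM in homo, where replicate 3 was the highest, with a log2 difference of 3.16 ± 0.59 (SE, adjusted p = 0.00497). Neither gene overlapped between groups. The sources used here do not say whether the counting used strand, so reads of neighbours or overlapping genes may not be separable.

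Spred2, an inhibitor of Ras to ERK signalling, has its start inside a kept region (4.82, 6.13, 6.15 and 7.89). It was at 11.0, 17.2 and 17.2 CPM in WT libraries. In het libraries it was at 21.4, 12.7 and 16.7 CPM, and in homo libraries at 38.0, 47.9 and 29.3 CPM, above all the others. The log2 difference was 1.38 ± 0.25 (SE, adjusted p = 0.00424). Fyb, an adaptor of T cells and myeloid cells, was low in all pre-B libraries, at 1.28, 0.898 and 1.13 CPM in WT and 3.33, 4.03 and 7.03 in homo (log2 1.94 ± 0.38, adjusted p = 0.0069). Also higher were the non-classical MHC gene H2-T22, the death receptor gene Fas and the zinc finger genes Zfp52, Zfp763 and Zfp324, with log2 differences of 1.81, 1.24, 1.72, 0.88 and 0.64. H2-T22 and the zinc finger genes belong to families of similar sequence, so their counts are less certain. The calls of Fas, Zfp763 and Zfp324 were lost without WT replicate 1 (adjusted p 0.103, 0.141 and 0.094), and over the other fits in 5, 9 and 5 of them.

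**Figure D4:**
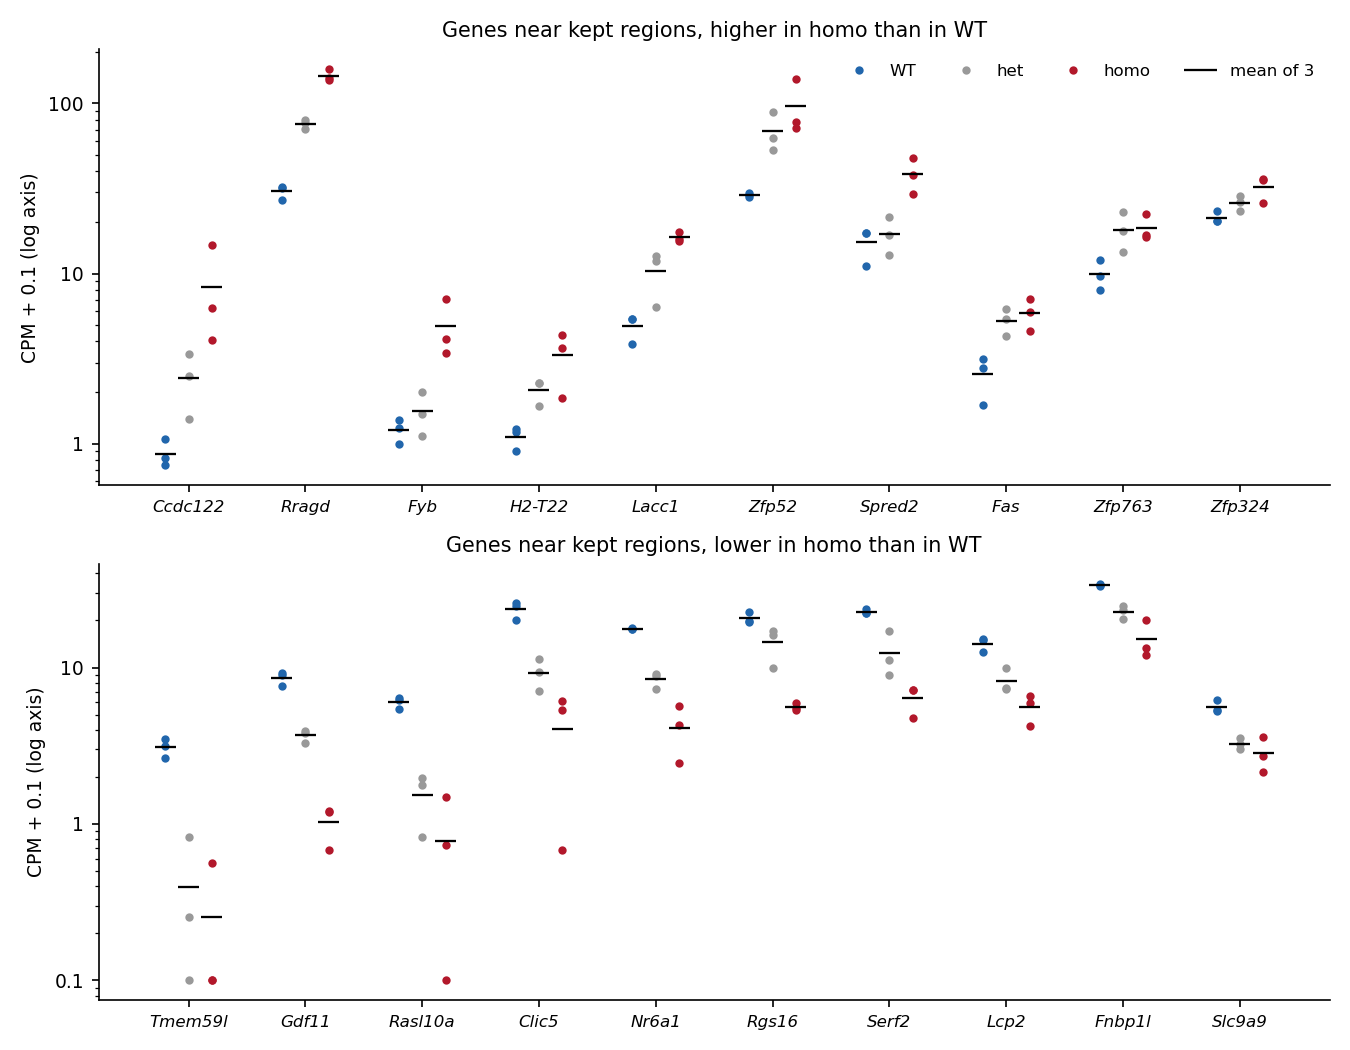
Levels in pre-B cells of the 20 named genes with a start within 1 kb of a kept region, in CPM plus 0.1 on log axes; each point is 1 library of WT (blue), het (grey) or homo (red) mice and the line is the mean of 3. In each gene the 3 homo libraries lie to one side of the 3 WT libraries, as for Rragd, at 27.0 to 32.3 in WT and 137 to 159 in homo. The genes were picked as called genes with the largest differences.

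Of the genes near kept regions that were lower in homo, Gdf11 had the largest log2 difference among those with counts in every pre-B library. It encodes a secreted TGF-beta family ligand, and the kept region 136 bp from its start (chr10:128891854-128892388) had folds of 16.7, 22.2, 11.5 and 5.68. Gdf11 was at 9.11, 7.54 and 8.86 CPM in WT libraries. It was at 3.74, 3.84 and 3.19 CPM in het libraries and at 1.11, 1.09 and 0.586 CPM in homo libraries, with a log2 difference (homo minus WT) of -3.02 ± 0.27 (SE, adjusted p = 7.08e-05). The 3 genotypes did not overlap.

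Rgs16, which shortens G protein signals of chemokine receptors, had a kept region 128 bp from its start (chr1:153739922-153740225) with 6.32, 7.42, 7.09 and 7.71. It was at 22.7, 19.6 and 19.7 CPM in WT and 5.86, 5.43 and 5.27 CPM in homo, a log2 difference of -1.88 ± 0.23 (SE, adjusted p = 0.000412). Nr6a1, an orphan nuclear receptor, was at 17.4, 17.4 and 17.7 CPM in WT and 5.55, 4.19 and 2.34 in homo (log2 -1.97 ± 0.23, adjusted p = 0.000287). Its region 634 bp from the start had 15.4 and 22.1 in the pre-B lists and 6.33 and 6.34 in the thymocyte lists. All 3 homo libraries of each gene lay below all 3 WT libraries.

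Lcp2 encodes SLP-76, an adaptor of T cell receptor signalling, and its start lies in a kept region (chr11:34046687-34047333) of nearly the same fold in all lists, 18.2, 17.6, 19.5 and 19.8. Its RNA was at 12.5, 15.1 and 14.8 CPM in WT and 5.86, 6.51 and 4.10 CPM in homo, a log2 difference of -1.27 ± 0.22 (SE, adjusted p = 0.00298). Wipf2, whose start lies in the kept region with the highest fold in WT pre-B cells among those that cover a start, was at 148, 147 and 152 CPM in WT and 101, 86.7 and 74.96 in homo (log2 -0.74 ± 0.13, adjusted p = 0.00364). Hjurp was at 60.9, 67.2 and 61.6 CPM in WT and 26.2, 30.1 and 39.2 in homo (log2 -1.01 ± 0.18, adjusted p = 0.00397). In each of the 3 genes the groups did not overlap, as in all the called genes. Wipf2 and Hjurp stand outside the rule for named genes and were chosen after their values were seen.

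Clic5, with 3 kept regions in its span and 1 of them 397 bp from a start, was at 20.0, 25.9 and 24.8 CPM in WT and 5.23, 6.05 and 0.586 in homo (log2 -2.30 ± 0.35, adjusted p = 0.00162). Homo replicate 3 was the lowest, and without it the log2 difference was -2.06. Tmem59l fell from 54 pooled counts in WT to 3 in homo, a WT to homo ratio of 14.4 with a 95% counting interval of 4.69 to 72.2 and a log2 difference of -3.72 ± 0.77 (SE, adjusted p = 0.00867). With the sex term, its log2 difference was -2.63 and the call was lost (adjusted p = 0.0566). The small Ras-like gene Rasl10a (log2 -2.71), Serf2 (log2 -1.75), the actin regulator Fnbp1l (log2 -1.23) and the sodium/proton exchanger Slc9a9 (log2 -1.10) were lower as well. The call of Slc9a9 was lost in 6 of the other fits, at adjusted p-values of 0.0511 without WT replicate 1, 0.0515 and 0.080 without homo replicates 2 and 1, 0.0722 without WT replicate 2, 0.056 with the sex term and 0.0573 with a replicate block.

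The 9 genes of the gene lists with a kept region near a start did not pass the test between homo and WT pre-B cells, and 3 of them passed it in at least 1 other fit. Tcf12 was at 426, 470 and 444 CPM in WT and 335, 327 and 431 in homo (log2 -0.28 ± 0.15, adjusted p = 0.235), and passed the test without homo replicate 3 (log2 -0.44, adjusted p = 0.0164). Runx3 was at 38.2, 33.2 and 37.9 CPM in WT and 49.9, 56.8 and 41.6 in homo (log2 0.47 ± 0.16, adjusted p = 0.0751). It passed with DESeq2 (log2 0.48, adjusted p = 0.031), with the sex term (0.61, adjusted p = 0.0403) and without homo replicate 3 (0.55, adjusted p = 0.0276). The groups of Runx3 did not overlap, those of Tcf12 did at one homo library. Il7r was at 454, 544 and 485 CPM in WT and 486, 520 and 1355 in homo, where replicate 3 stood apart (log2 0.69 ± 0.37, adjusted p = 0.249, and 0.023 without that library). Plcg2 (log2 -0.22), Cd5 (1.15), Zfp36l1 (0.095), Atm (0.0042), Pou2af1 (0.25) and Rps19 (0.053) had adjusted p-values of 0.0699 to 0.987, and Cd5 passed without homo replicate 1 (log2 1.43, adjusted p = 0.047). Ikzf3 and Ikzf1 RNA, at log2 -0.047 ± 0.14 and 0.27 ± 0.19, did not pass either (adjusted p 0.853 and 0.392).

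Between the stages in WT mice, 85 of 137 tested genes near kept regions changed (62.0%), 46 higher and 39 lower in pre-B cells. Over all 12440 genes tested, 64.3% changed, 31% higher and 33.3% lower, a share close to that near kept regions. This comparison shares its WT pre-B libraries with the one above. The pre-B side included Pou2af1, which went from 38.6, 24.1 and 42.9 CPM at the earlier stage to 541, 579 and 538 CPM at the later one (log2 3.96 ± 0.28, adjusted p = 7.27e-10). Rgs16 went from 0.931, 0.984 and 0.463 CPM to 22.7, 19.6 and 19.7 CPM (log2 4.67 ± 0.31, adjusted p = 3.82e-10). Tmem59l (log2 3.63) and 3110045C21Rik (log2 3.77) were higher in pre-B cells as well, and Rasl10a had 3 pooled counts in pre-pro B cells and 106 in pre-B cells, a ratio of 0.0284 with a 95% counting interval of 0.00577 to 0.0854.

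The pre-pro B side included Fyb, at 828, 788 and 744 CPM against 1.28, 0.898 and 1.13 CPM in pre-B cells (log2 -9.46 ± 0.22, adjusted p = 6.64e-16). Dll4, a Notch ligand, was at 48.4, 52.8 and 38.1 CPM and 0.959, 0.539 and 0.967 CPM (log2 -5.79 ± 0.24, adjusted p = 6.22e-11). Its kept region lay 821 bp from the start with folds of 13.7 and 15.02 in the pre-B lists and 7.32 and 4.92 in the thymocyte lists. Runx3 fell by 2.41 ± 0.11 (SE, log2, adjusted p = 2.64e-12) from 185, 191 and 197 CPM. Fut7, a fucosyltransferase of selectin ligands, had 109 pooled counts in pre-pro B cells and 1 in WT pre-B cells, a ratio of 110 with a 95% counting interval of 19.3 to 4366. Sstr2, a somatostatin receptor, had 47 and 0 pooled counts, which is 15.7-fold lower in pre-B cells when their pooled counts are set to a floor of 3. The noncoding 2900079G21Rik, with 26 and 0, was 8.71-fold lower with that floor. The lower 95% counting limit of its ratio was 6.59, so the floor value is not a minimum. In each of these genes the libraries of the 2 stages did not overlap.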

How the data were processed

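Members, gene lists and comparisons were chosen with earlier results of these data known. The authors deposited broad peak lists, 1 per ChIP library, each peak with a fold (the caller's ratio), a score and its p-value and q-value as −log10. They also deposited raw read counts per gene for 18 RNA libraries. MACS2 2.1.1, STAR 2.7.0, HISAT2 2.1.0 and the mm10 build stand in the submitters' processing notes, without roles. The control and thresholds of the peak calls are not given in the sources used here, and the input samples were not analysed here.

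Peaks were intersected in Python 3.11.15 (pandas 2.3.3), with coordinates counted from 1. The deposited score is 10 times the −log10 q-value and was not used further. Gene starts and promoter windows came from RefSeq (GRCm38.p6), with 32851 windows of 27025 genes, and gene spans from its RefSeq gene table. A region is near a gene when a start lies within 1000 bp. Tests used edgeR 4.0.16 in R 4.3.3 on the counts (filterByExpr, TMM, robust quasi-likelihood test), the genotypes in the 9 pre-B libraries and the stages in all 18. The 5 entries that name no gene (29.9% to 40.2% of reads in no gene) stayed out. Called means a Benjamini-Hochberg adjusted p under 0.05 over all genes tested. CPM values are TMM-normalised. Nothing in the labels says whether the libraries of a group came from separate mice, so p-values measure only the spread between these samples, which may be technical. Intervals and floors cover counting error only. 1 pre-B marker is not reported here.

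Named regions are the 15 with the highest fold, the 10 widest and the 5 lowest in WT pre-B cells, and the 10 with the highest summed rank over the 4 lists. Named genes are listed genes with a kept region within 1 kb of a start, the 10 higher and 10 lower with the largest log2 difference between homo and WT, and 5 each way for the stages. The text gives the members of these that bear on it. Alternatives were the overlap, stricter peaks, the distance to the start, size factors, DESeq2 1.42.0, no filter, a replicate block and leaving out each library.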

Additional observations from a re-analysis of the deposited data

How the results depend on the processing

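The 979 kept regions became 894 when the overlap had to reach 50% of the WT pre-B peak, 579 with 50% of both peaks, 664 with a −log10 q-value of at least 5 in every list and 513 with a fold of at least 5 in every list. The share near a gene start was 37.1% within 5 kb and 3.88% where the region had to cover the start. Genes called between homo and WT pre-B cells near kept regions, 30 of 127 (23.6%, beside 15.9% of all genes), numbered 31 of 127 with DESeq2 size factors (24.4% beside 15.9%), 37 of 127 with DESeq2 (29.1% beside 19.6%), 33 of 150 without the filter on low counts (22% beside 9.64%) and 48 of 238 with starts within 5 kb (20.2% beside 15.9%). Leaving out each library gave 19 to 35 of 127 near kept regions and 1055 to 2097 over all genes, beside 1811, with 1055, 1068 and 1157 without WT replicates 1, 2 and 3. Between the WT stages the 85 calls of 137 genes became 76 to 81 of 138 when each library was left out, where 58.7% to 59.7% of all genes were called, and 179 of 261 with starts within 5 kb (68.6% beside 64.3%). The labels do not say whether replicate numbers pair the libraries, and the main fits did not pair them. Same-numbered WT and homo pre-B libraries deviated together at r = 0.20, -0.058 and 0.18, where numbers 1 and 3 matched their own number best. For WT libraries of the 2 stages the values were 0.095, 0.10 and 0.13, and each matched its own number best. These low values do not settle whether the numbers pair the libraries. With a replicate block, 19 of 127 genes near kept regions (14.96%) and 1125 of all genes (9.86%) were called between homo and WT, and 83 of 137 near kept regions (60.6%, beside 62.9% of all) between the stages. Chosen after seeing the data were 98 called genes of 395 (homo against WT, 24.8% beside 15.9%) and 317 of 432 (stages, 73.4% beside 64.3%) with a kept region inside the gene span, 25 of 127 with a sex term (19.7% beside 12.1%), and 965 kept regions without those on an Aiolos peak. Of the 20 named genes called between homo and WT, 15 stayed called under all of these fits, and Fas, Slc9a9, Tmem59l, Zfp324 and Zfp763 did not. The direction turned, without a call, for Pou2af1 (log2 -0.083 with the sex term, -0.10 to 0.40 without single libraries), Atm (-0.016 without the filter, -0.11 with the sex term, -0.12 to 0.083 without single libraries), Zfp36l1 (-0.037 with the sex term), Rps19 (-0.13 with the sex term, -0.058 to 0.12 without single libraries) and Ikzf3 (-0.18 to 0.035 without single libraries). The cause of these shifts was not tested. ChIP depth is unknown here, and each list comes from 1 library.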

Other observations

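Kept regions also lay at microRNA genes. A region of 876 bp overlapped the hairpin of Mir6974 and the start of Lta, which encodes lymphotoxin alpha, with Ikaros folds of 13.4 in WT pre-B, 12.5 in homo pre-B, 17.0 in WT thymocytes and 15.3 in homo thymocytes (chr17:35204476-35205351). Another, with 4.60, 3.93, 4.59 and 3.67, lay 978 bp from the hairpin of Mir142b, which shares its locus with the blood cell microRNA Mir142 (chr11:87757933-87758180). One more lay 840 bp from Mir7660, with 15.7, 15.7, 11.7 and 11.6 (chr6:115773929-115774817).

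A kept region covered a start of Etv6, an ETS-family repressor, and a single kept region touched the start windows of both Bag1 and Chmp5, which are transcribed away from each other. The region inside Scml4, a Polycomb-related gene, was among the 10 with the highest summed rank over the 4 lists, with folds of 15.4 in WT pre-B, 24.0 in homo pre-B, 27.8 in WT thymocytes and 24.2 in homo thymocytes (chr10:42897256-42897957).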
